A study of Mus musculus with 9 samples.

Results

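The mitochondrial ribosome is built from proteins that nuclear genes encode, and the 76 genes described here are those of the deposited table whose symbol starts with Mrpl (47 genes) or Mrps (29 genes) followed by a digit. No symbol with -ps, the mark of a pseudogene, was found. They have 85 of the 21388 transcripts and were summed to 76 of 16537 genes. RNA was sequenced from bone marrow of FVB/NJ mice, an inbred strain, in 9 libraries. Wild-type mice at postnatal day 42 gave 3 libraries of hematopoietic progenitor cells (HPC). PML-RAR mice, which carry the fusion of acute promyelocytic leukemia, gave 3 libraries of leukemic progenitors (LP) in the early phase and 3 in the median phase. The age of the LP mice, the promoter of the transgene, the markers used for sorting and the number of mice behind a library are not stated in the labels, so leukemia, age and the cells that were sorted cannot be told apart. P-values measure the spread between libraries, which may be technical.

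Mitochondrial ribosomes translate the messages that mitochondrial DNA encodes, which are core subunits of the respiratory chain and of ATP synthase. Their RNA comes from mitochondrial DNA, while every protein is made in the cytosol and imported. The large subunit joins amino acids and the small subunit reads the message. Each holds proteins with a counterpart in bacteria and others that arose in mitochondria. By subunit, 49 of the genes encode large subunit proteins (Mrps30 and Mrps18a among them, despite their symbols) and 26 small subunit proteins. Mrps36 was named as a ribosomal protein and is now known as a part of the oxoglutarate dehydrogenase complex. It was kept because the rule goes by symbol.

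The libraries held an inferred 20.6 to 28.4 M (mega) fragments each. All 76 genes passed the filter on low counts, and the lowest estimated count of any of them in any library was 91.6. Levels are CPM (counts per 1 M counts, TMM scaling), and levels of different genes are compared only in FPKM, which corrects for transcript length. Markers of other cells differed between the groups. The summed level of 6 erythroid markers, 5 of them called lower in both LP groups and 1 not tested, lay between 2566 and 3021 CPM across the HPC libraries, between 9.64 and 13.9 across early LP and between 7.86 and 10.8 across median LP. That of 8 stem and progenitor markers was 894 to 1004 CPM in HPC, 261 in each early LP library and 242 to 259 in median LP. Of these 8, 7 were lower in each LP group, 1 was higher in early LP and 1 was not called in median LP. That of 5 promyelocyte markers was 13069 to 14716, 34562 to 39550 and 28367 to 30353 CPM, with 4 higher. That of 4 monocyte markers was 253 to 317, 1308 to 1373 and 1257 to 1599 CPM, with 2 higher and 2 lower in each LP group. That of 7 neutrophil markers was 2775 to 5075, 8951 to 9228 and 11108 to 12306 CPM. Of these 7, 2 were higher and 2 lower in early LP, and 2 higher and 3 lower in median LP. No marker was at 0 in every library. The part of the cell mix in the results below was not tested, and in bulk RNA fewer cells of a type and less RNA per cell cannot be told apart.

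Most mitochondrial ribosomal protein genes had lower levels in early LP than in HPC. Of the 76 genes, 50 fell and 5 rose, and 21 did not pass the threshold of an adjusted p of 0.05 (edgeR's quasi-likelihood test, adjusted over all genes tested). Of all 12837 genes tested, 73.2% were called, 37.9% lower and 35.3% higher. The median log2 change was -0.34, a fall by 21.2%, against -0.04 over all genes tested. Only 2 of the 76, Mrpl52 and Mrps6, fell at least 2-fold, and none rose 2-fold. The 3 early LP libraries all lay below the 3 HPC libraries in 52 genes and above them in 3, against 38.4% and 36.4% of all genes tested.

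**Figure D1:**
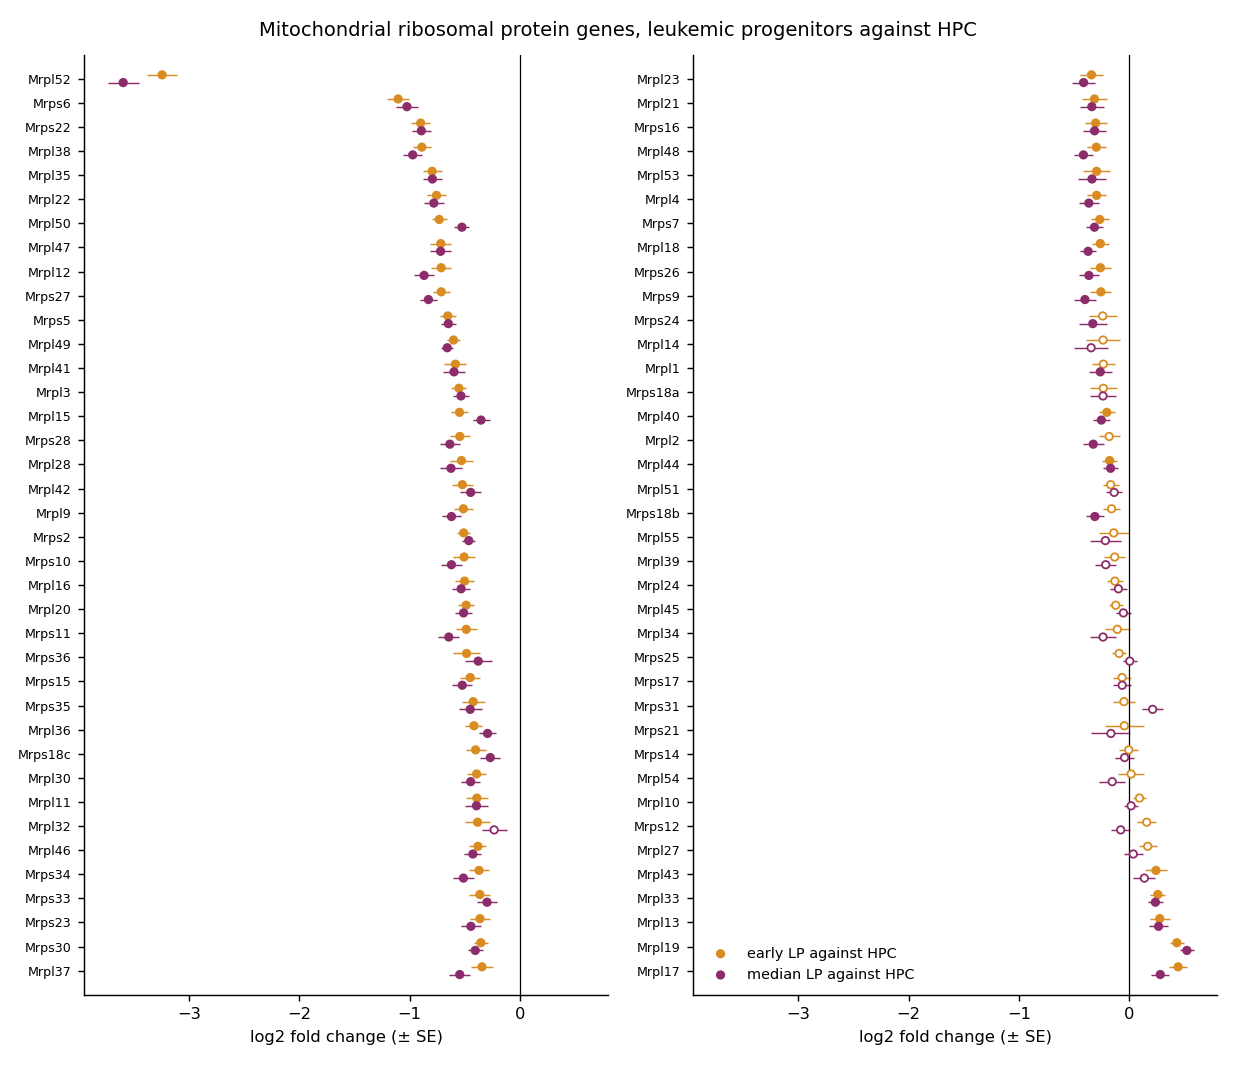
Log2 fold change (horizontal axis, with bars of 1 SE) of the 76 mitochondrial ribosomal protein genes in early LP (orange) and median LP (purple) against HPC, in the order of the early LP change. Filled points passed the adjusted p threshold and open points did not. Mrpl52 stands apart at -3.25 and -3.60, most others lie between -0.9 and 0, and Mrpl13, Mrpl17, Mrpl19 and Mrpl33 are filled on the right of 0 in both.

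Median LP showed much the same picture against the same 3 HPC libraries. There 53 genes fell, 4 rose and 19 did not pass, against 73.8% of all genes tested called, 37.7% lower and 36.0% higher. The median log2 change was -0.37, a fall by 22.4%, against -0.04 over all genes tested. All 3 median LP libraries lay below all 3 HPC libraries in 55 genes, against 39.0% of all genes tested. Across both comparisons, 17 genes were not called in either.

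Between the LP groups no member was called. Of all genes tested 0.997% were called lower and 1.48% higher in median LP against early LP, DESeq2 also called no member, and 5 members had an unadjusted p under 0.05. These were Mrpl52 (log2 change -0.35, SE 0.16), Mrps12 (-0.24, SE 0.08), Mrps31 (0.26, SE 0.10), Mrpl50 (0.21, SE 0.07) and Mrpl15 (0.19, SE 0.08), with adjusted p from 0.160 to 0.288. The median over the 76 genes was -0.05, and the differences ranged from -0.35 to 0.26. Leaving out 1 library moved this median to between -0.09 (without median LP 1) and -0.02 (without early LP 3).

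**Figure D2:**
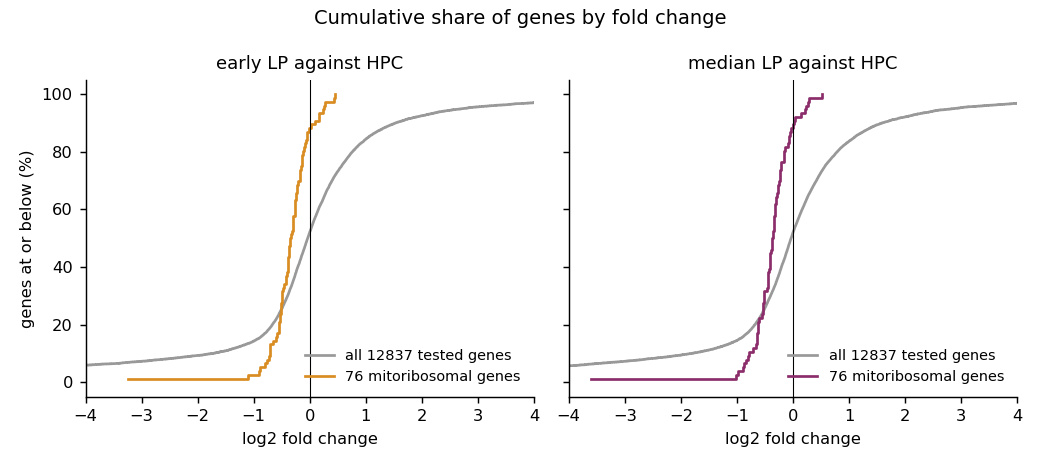
Cumulative share of genes (vertical axis, percent) at or below a log2 fold change (horizontal axis, shown from -4 to 4) for the 76 genes (colour) and all 12837 genes tested (grey), with the change of early LP on the left and of median LP on the right, each against HPC. The coloured curves rise steeply just left of 0 and reach 100% near 0.5, while the grey curves extend far to both sides.

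The region just before the transcription start is shown for 5 genes: Mrpl52, Mrps22 and Mrpl3, which fell, and Mrpl33 and Mrpl17, which rose. These 5 do not stand for the members. Each line holds 150 bases from RefSeq's start sites on GRCm38.p6 (mm10), 5′ to 3′ on the strand of the gene, ending at the last base before the start. Capitals mark the letters CCGGAAGT, a sequence that the ETS factor GABPA binds. Mrps6, Mrpl12, Mrpl22 and Mrpl35 also fell and lacked these letters in the window searched below.
Mrpl52 (chr14:54426759-54426908, plus strand): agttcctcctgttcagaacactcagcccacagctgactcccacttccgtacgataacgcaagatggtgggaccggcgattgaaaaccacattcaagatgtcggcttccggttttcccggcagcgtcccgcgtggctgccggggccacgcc
Mrps22 (chr9:98601680-98601829, minus strand): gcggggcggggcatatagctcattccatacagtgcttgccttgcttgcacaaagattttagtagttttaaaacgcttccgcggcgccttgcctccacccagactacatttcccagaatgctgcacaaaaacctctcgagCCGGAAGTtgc
Mrpl3 (chr9:105053118-105053267, plus strand): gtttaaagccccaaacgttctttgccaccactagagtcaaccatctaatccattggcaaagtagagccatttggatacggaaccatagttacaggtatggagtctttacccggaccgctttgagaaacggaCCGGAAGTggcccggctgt
Mrpl33 (chr5:31613801-31613950, plus strand): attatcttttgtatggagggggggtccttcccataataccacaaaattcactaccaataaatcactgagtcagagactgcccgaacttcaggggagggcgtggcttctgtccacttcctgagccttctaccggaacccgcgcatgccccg
Mrpl17 (chr7:105811088-105811237, minus strand): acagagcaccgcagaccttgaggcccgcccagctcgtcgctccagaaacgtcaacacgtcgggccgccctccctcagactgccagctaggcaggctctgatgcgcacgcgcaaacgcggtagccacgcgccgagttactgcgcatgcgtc

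RefSeq start sites were found for 67 of the 76 genes, and 5 motifs were searched on both strands in the 300 bases from 250 before to 50 after the start. For a gene with several start sites, only the first listed was counted. No motif contains another. The letters AAGATGGC, bound by YY1, stood in 12 of 67 members (17.9%), in 4.76% of 10043 tested genes and in 2.88% of all 27025 genes with a start site. CCGGAAGT stood in 11 members (16.4%), 8.39% of tested genes and 4.0% of all. The NRF1 consensus, a palindrome of 10 letters, stood in 3 members (4.48%), 2.08% and 0.977%. The E-box CACGTG that Myc and Max bind was in 7.46% of members against 10.2% and 7.24%, and CCAAT in 40.3% against 39.6% and 37.9%. Of the 44 members with a start site that fell in early LP, 9 had the YY1 letters and 7 the GABPA letters. Mrpl48, which also fell, had the GABPA letters at a start site that was not counted. In Mrpl52 the GABPA letters began 1 base after the first transcribed base, and in Mrpl33, which rose, they crossed the start. None of the 5 motifs was in the window of Mrpl17. A match of letters is a description and not a binding site.

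Mrpl52, a protein of the large subunit with no bacterial counterpart, had the largest change. It lies on chromosome 14 (54426909 to 54429750, mm10). HPC 1 to 3 held 46.2, 47.6 and 61.8 CPM, early LP 1 to 3 held 4.72, 5.73 and 5.96, and median LP 1 to 3 held 4.12, 4.66 and 4.03. Every LP library was far below every HPC library, with no overlap. The log2 change was -3.25 (SE 0.14, adjusted p = 1.07e-09) in early LP and -3.60 (SE 0.14, adjusted p = 5.30e-10) in median LP, or 0.105 and 0.0826 times the level of HPC. In FPKM it went from the highest of the 76 genes in HPC (340 ± 18.9, SD, n = 3) to 37.0 ± 5.75 in early and 27.1 ± 2.69 in median LP. That per-length level is uncertain, because its transcript has 412 bases and the deposited FPKM correspond to a length of 122.7. For Mrpl33 these are 466 and 201.9.

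Genes around Mrpl52 were also lower. Mmp14, a membrane metalloprotease which lies just beyond the end of Mrpl52, stood at 18.6, 0.127 and 0.218 CPM (means of HPC, early LP and median LP), a log2 change of -7.14 (SE 0.29) in early LP. Prmt5, an arginine methyltransferase, changed by -0.81 (SE 0.06) and Oxa1l, which inserts mitochondrial proteins into the inner membrane, by -0.60 (SE 0.09). Lrp10 lay in the same stretch and was not called (0.01, SE 0.09, adjusted p = 0.920).

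**Figure D3:**
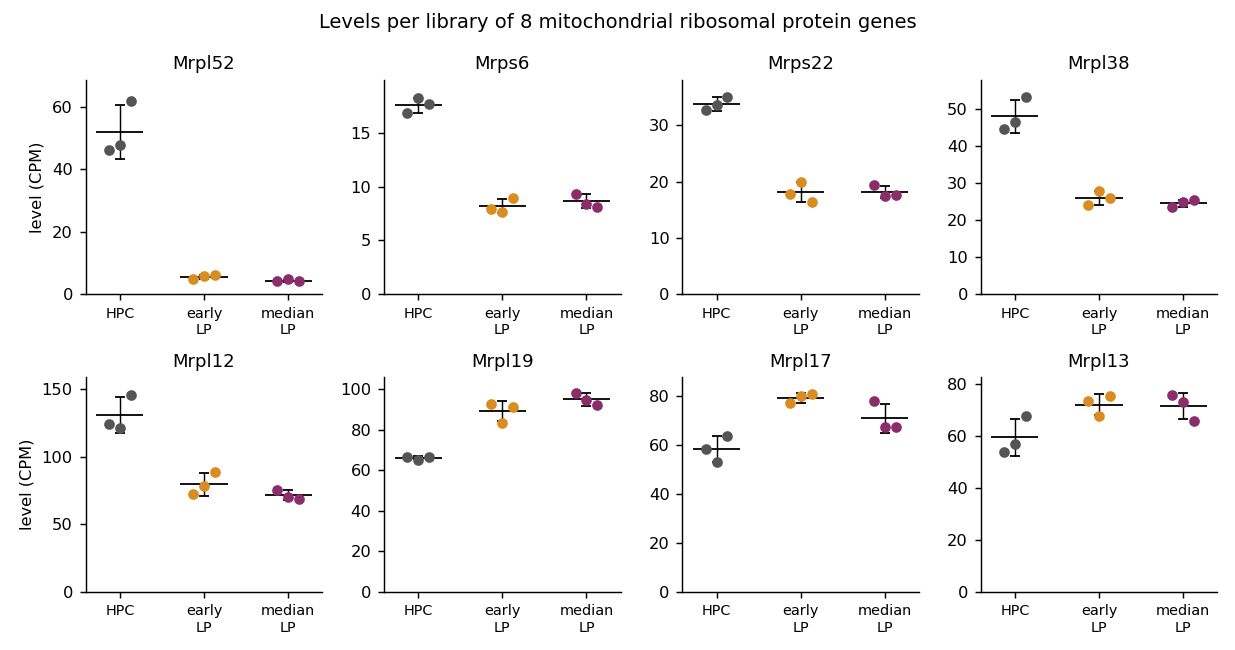
Level in CPM (vertical axis, starting at 0 and scaled for each gene) of 8 mitochondrial ribosomal protein genes in HPC (grey), early LP (orange) and median LP (purple). Points are libraries, horizontal lines means and bars SD of 3 libraries. Mrpl52, Mrps6, Mrps22, Mrpl38 and Mrpl12 are lower in every LP library than in every HPC library, Mrpl19 and Mrpl17 are higher, and the groups of Mrpl13 overlap.

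Among small subunit genes, 18 of 26 fell in early LP and 20 of 26 fell in median LP, with medians of -0.36 and -0.38. The shares were 69.2% and 76.9%, against 37.9% and 37.7% of all genes tested. None rose, although Mrps31 in median LP (0.21, SE 0.10, adjusted p = 0.0662) was called higher without HPC 3 (0.0250), without median LP 3 (0.0279) and after a correction for transcript length (0.0206). Without median LP 1 its change was 0.11. Mrps6, the counterpart of a bacterial protein of the same number, stood at 16.8, 18.2 and 17.7 CPM in HPC, 7.90, 7.68 and 8.94 in early LP and 9.36, 8.42 and 8.13 in median LP. The groups were well apart, with log2 changes of -1.10 (SE 0.10) and -1.02 (SE 0.10). Its locus is shared with Slc5a3, an inositol transporter with a level of 14.4 ± 6.17 CPM in HPC and 14.5 ± 1.99 in early LP. In median LP Slc5a3 stood at 24.7 ± 2.15 CPM and was called higher (0.79), so reads in the overlap are uncertain. Mrps22, a mitochondria-specific protein with inherited human disease forms, stood at 32.7, 33.6 and 35 CPM in HPC, at 17.8, 20.0 and 16.4 in early LP and at 19.5, 17.5 and 17.6 in median LP. It did not overlap between LP and HPC and changed by -0.90 (SE 0.09) and -0.89 (SE 0.09).

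Mrps27, a pentatricopeptide repeat protein, stood at 35.9, 36.1 and 39.1 CPM in HPC, at 22.7, 23.3 and 21.7 in early LP and at 22.9, 19.7 and 19.9 in median LP. All LP libraries were lower, and the log2 changes were -0.71 (SE 0.08) and -0.83 (SE 0.08). Mrps16 and Mrps18c, among the highest in FPKM (101 and 115 over all libraries), fell less. Mrps16 changed by -0.30 (SE 0.10, adjusted p = 0.0164) in early LP and -0.31 (SE 0.10) in median LP. Mrps18c, a counterpart of bacterial S18, changed by -0.40 (SE 0.09) and -0.27 (SE 0.09). The early LP call of Mrps16 ended without HPC 3 (adjusted p = 0.0585) and without early LP 1 (0.0736), and its median LP call after the correction for length (0.0820). The median LP call of Mrps18c ended without HPC 3, median LP 2 or median LP 3 (adjusted p 0.0534 to 0.0653) and after that correction (0.504). Mrps36, the dehydrogenase component, changed by -0.48 (SE 0.12) and -0.38 (SE 0.12).

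Among large subunit genes, 31 of 49 fell and 5 rose in early LP, and 32 fell and 4 rose in median LP, with medians of -0.32 and -0.35. The shares called lower were 63.3% and 65.3%, against 37.9% and 37.7% of all genes tested. Those called higher were 10.2% and 8.16%, against 35.3% and 36.0%. Mrpl38, which is mitochondria-specific, stood at 44.6, 46.4 and 53.1 CPM in HPC, at 24.1, 27.8 and 25.9 in early LP and at 23.4, 24.8 and 25.3 in median LP. No LP library reached an HPC library, and the log2 changes were -0.89 (SE 0.08) and -0.97 (SE 0.08). Mrpl12, the stalk protein that binds translation factors, stood at 124, 121 and 146 CPM in HPC, at 72.1, 77.9 and 88.5 in early LP and at 75.6, 70.2 and 68.3 in median LP. It was lower in all LP libraries, by log2 changes of -0.71 (SE 0.09) and -0.87 (SE 0.09).

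Mrpl35 had the lowest FPKM of the 76 genes (7.64 over all libraries) and stood at 38.6, 42.1 and 46.0 CPM in HPC, at 25.3, 22.7 and 25.1 in early LP and at 26.3, 23.8 and 23.1 in median LP. Its groups did not overlap, and it changed by -0.80 (SE 0.09) and -0.79 (SE 0.09). Mrpl22, whose bacterial counterpart lines the tunnel through which the new protein leaves, stood at 34.4, 30.1 and 36.7 CPM in HPC, at 18.3, 20.1 and 21.5 in early LP and at 19.8, 19.8 and 19.3 in median LP. It was lower in every LP library, by log2 changes of -0.76 (SE 0.09) and -0.78 (SE 0.09). Mrpl3, whose bacterial counterpart reaches towards the catalytic centre, changed by -0.55 (SE 0.07) and -0.54 (SE 0.07). Mrpl41 and Mrpl11, both low in FPKM (8.77 and 11.8), changed by -0.59 (SE 0.10) and -0.39 (SE 0.10) in early LP. Mrpl41 stood at 32.0 ± 2.60 CPM in HPC. It shares its locus with Wdr85, which fell by 0.74 on the log2 scale in early LP from 28.6 ± 1.67 CPM in HPC, so reads in the overlap are uncertain. Mrpl1 (8.79 FPKM) was called in median LP (-0.26, SE 0.11, adjusted p = 0.0422), and that call ended without any 1 of HPC 1 to 3, early LP 1 to 3, median LP 2 or median LP 3 (adjusted p 0.0532 to 0.170), with DESeq2 (0.0540) and in a fit of the 2 groups alone (0.0700).

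The genes were also divided by origin. Of 46 genes with a bacterial counterpart, 29 fell and 4 rose in early LP and 31 fell and 4 rose in median LP. Of 29 mitochondria-specific genes, 20 fell and 1 rose, and 21 fell and none rose. The shares called lower were 63.0% and 69.0% in early LP and 67.4% and 72.4% in median LP, against 37.9% and 37.7% of all genes tested. The medians were -0.33 and -0.34 in early LP and -0.35 and -0.41 in median LP, and the difference between the origins was not tested.

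The members that rose all belong to the large subunit. Mrpl19 stood at 66.6, 65.3 and 66.7 CPM in HPC, at 93.0, 83.5 and 91.4 in early LP and at 98.3, 94.8 and 92.2 in median LP. Every LP library was above every HPC library, with log2 changes of 0.43 (SE 0.06) and 0.52 (SE 0.06). Its transcript of 5000 bases lies in a locus shared with AW146020, which fell (17.1 ± 0.779 CPM in HPC, 13.2 ± 1.60 in early LP). Mrpl17, with a transcript of 6712 bases, stood at 58.2, 52.9 and 63.7 CPM in HPC, at 77.0, 80.0 and 80.6 in early LP and at 77.8, 67.4 and 67.2 in median LP. The groups did not overlap, and it rose by 0.44 (SE 0.08) and 0.28 (SE 0.08) on the log2 scale. Its call in median LP was lost with FPKM (adjusted p 0.206 and 0.209 with a pseudocount of 1 and of 0.1), upper quartile scaling (0.0528) and a correction for transcript length (0.362).

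Mrpl33, the member with the highest FPKM over all libraries (310), stood at 69.5, 63.2 and 69.9 CPM in HPC, at 86.2, 81.6 and 74.8 in early LP and at 79.9, 79.3 and 79.7 in median LP. All LP libraries were higher, by log2 changes of 0.26 (SE 0.07) and 0.24 (SE 0.07). The latter call was lost with FPKM (adjusted p 0.228 and 0.227) and upper quartile scaling (0.0547). Mrpl13 (100.2 FPKM) stood at 53.9, 57.0 and 67.7 CPM in HPC, at 73.3, 67.6 and 75.3 in early LP and at 75.7, 73.2 and 65.8 in median LP. HPC 3 lay within the range of both LP groups, and the changes of 0.28 (SE 0.09, adjusted p = 0.0156) and 0.27 (SE 0.09, adjusted p = 0.0189) were not called without HPC 1 (0.0514 and 0.0541). The early LP call was also lost without early LP 3 (0.0546), and the median LP call without median LP 1 (0.0630) or median LP 2 (0.0539). Upper quartile scaling ended both (0.0682 and 0.0979), and FPKM the call in median LP (0.0811 and 0.0797). Mrpl13 is the only member on chromosome 15, where the 498 genes tested had a median log2 change of 0.53 in early LP.

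Mrpl43, mitochondria-specific, was called in early LP (0.24, SE 0.10, adjusted p = 0.0433) and not in median LP (0.14, SE 0.10). HPC 1 to 3 held 37.2, 40.5 and 48.4 CPM and early LP 1 to 3 held 49, 54.2 and 46.1, so that HPC 3 lay above early LP 3. The call ended without HPC 1, HPC 2, early LP 1, early LP 2 or median LP 2 (adjusted p 0.0545 to 0.158), with upper quartile scaling (0.147), FPKM (0.134) and the 2 groups alone (0.0534). In median LP it was called higher without HPC 3 (0.25, adjusted p = 0.0188) and after the correction for length (0.18, adjusted p = 0.0337). Mrpl43 overlaps Peo1 (the Twinkle helicase), which runs the other way and fell, and no source used here says whether the counting used strand. On chromosome 8, whose genes had a median of 0.53, the members Mrpl34 (-0.11, SE 0.11) and Mrps31 (-0.05, SE 0.10) were not called in early LP.

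**Figure D4:**
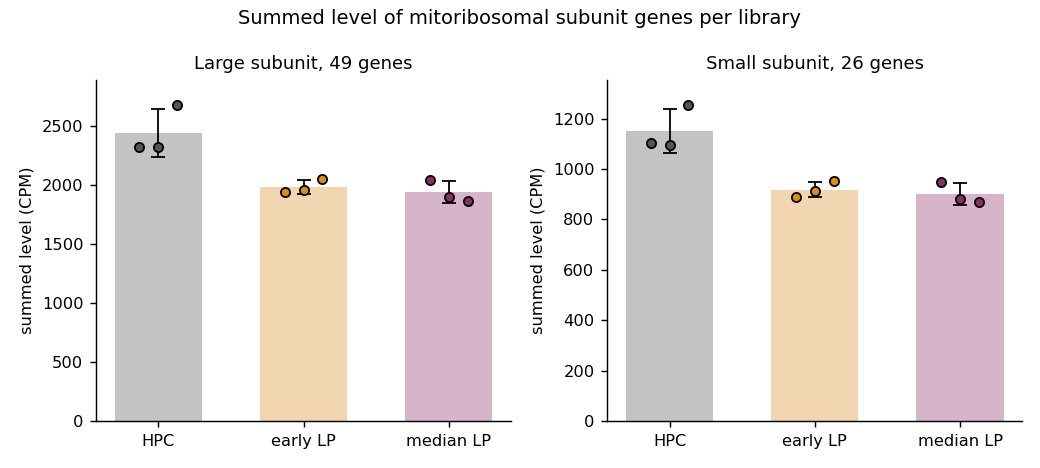
Summed level in CPM (vertical axis, from 0) of 49 large subunit genes (left) and 26 small subunit genes (right). Bars are means, error bars SD of 3 libraries and points the libraries. All LP libraries lie below all HPC libraries in both panels, and HPC 3 is the highest of its group.

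The summed level of the 76 genes was 3447, 3441 and 3960 CPM for HPC 1 to 3, 2850, 2891 and 3018 for early LP 1 to 3, and 3017, 2802 and 2758 for median LP 1 to 3. No LP library reached HPC, and the group means were 3616 ± 298, 2920 ± 87.4 and 2859 ± 138 CPM (SD, n = 3). The sums fell by 19.3% and by 20.9%. The ratio of the large to the small subunit sum in CPM was 2.12 ± 0.0179 (HPC), 2.16 ± 0.0217 (early LP) and 2.15 ± 0.00786 (median LP). It was higher by 1.98% and 1.77% in the LP groups, and every LP library (lowest 2.14) lay above every HPC library (highest 2.135). In summed FPKM the large subunit changed by -24.5% and -29.6% and the small subunit by -20.7% and -25.6%. The direction of the change in this ratio thus depends on the unit, and the ratio was not tested.

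HPC 3 stood apart from its group. Members are short, with a median length of 1048 bases against 2751 over all genes tested, and genes under 1500 bases were higher in HPC 3 by 0.22 (log2, median deviation from each gene's mean), while genes of at least 6000 bases lay at -0.27. Without HPC 3, 43 members fell and 7 rose in early LP, with a median of -0.23, and 47 fell and 6 rose in median LP, with a median of -0.28. The sums then fell by 15.2% in early LP, and the change in median LP was -16.99%. By length, the 22 members under 800 bases had medians of -0.32 in early LP and -0.33 in median LP, where all 587 genes tested of that length were at -0.12 and -0.24. Between 800 and 1200 bases the 23 members were at -0.36 and -0.37 and all 927 genes at -0.04 and -0.09. From 1200 to 2000 bases the 20 members were at -0.32 and -0.40 and all 2549 genes at -0.02 and -0.06. From 2000 to 3500 bases the 6 members were at -0.45 and -0.43 and all 4325 genes at -0.04 and -0.04. From 3500 to 6000 bases the 3 members were at -0.55 and -0.35 and all 3186 genes at -0.04 and -0.004. The 2 members of at least 6000 bases had medians of 0.18 and 0.14, against -0.03 and 0.08 over 1263 genes.

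Over the 9 libraries, the log2 level of a member had a median correlation (Pearson's r) of 0.92 with the mean of the other members, and 45 of 76 were above 0.9. The 8 below 0 were Mrpl19 (-0.88), Mrpl33, Mrpl17, Mrpl13, Mrpl43, Mrpl27, Mrpl10 and Mrps31. All these values share the step between HPC and LP, the depth of the libraries and the level of short transcripts in HPC 3. The genes outside the group most like its mean were Rpl5 (0.998), Rpl6, Rpl15 and Rpl7, proteins of the cytosolic ribosome, and Cct2, a chaperonin subunit. Of 12761 genes outside the group, 2394 had an r above 0.9.

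Some mitochondrial ribosomal genes start back to back with another gene or overlap it at their starts. In the GENCODE annotation of mm10, 32 of the 76 had a start on the opposite strand within 1000 bases, and 30 of these neighbours were tested. In early LP, 15 of the 30 fell, 7 rose and 8 were not called, against 37.9% lower and 35.3% higher over all genes tested. Of the 20 members in such pairs that fell in early LP, 12 had a neighbour that fell, 2 a neighbour that rose and 6 one that was not called. In the pairs named next, the annotated genes overlap at their starts, so reads there are uncertain if the counting ignored strand. Mrpl46 and Mrps11 on chromosome 7, each counted as the neighbour of the other, changed by -0.38 (SE 0.08) and -0.49 (SE 0.09). Mrpl18 (-0.26, SE 0.08) and its partner Tcp1, a chaperonin subunit (-0.50), both fell. Mrpl47 (-0.72, SE 0.10) fell beside Ndufb5, a complex I subunit, which was not called (-0.08).

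Other proteins of the mitochondrial ribosome carry other symbols. Of 7 genes so listed, 4 fell and 1 rose in early LP, and 5 fell and 1 rose in median LP. The shares called lower were 57.1% and 71.4%, against 37.9% and 37.7% of all genes tested. Ptcd3, a pentatricopeptide repeat protein of the small subunit, changed by -0.87 (SE 0.07) from 126 ± 1.05 CPM, Dap3, its GTP-binding protein, by -0.57 (SE 0.07), and Chchd1 by -0.48 (SE 0.11). The one that rose, 2810428I15Rik (0.90, SE 0.11), is named Rex1bd in RefSeq and does not belong to the ribosome. It was listed by mistake and is counted in the 7 genes and in the shares above. Mrp63, a large subunit protein outside the symbol rule and not in that list, was not called (0.08).

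Factors that work with the ribosome were counted by list. Of 16 translation factors, 12 fell and 1 rose in early LP and 13 fell and 1 rose in median LP. Gfm2 (-0.73, SE 0.06) and Mrrf (-0.81, SE 0.07), which recycle ribosomes, Tufm, the elongation factor that delivers tRNA (-0.73, SE 0.08), and Taco1, an activator of translation (-0.69, SE 0.09), fell in early LP. Pdf, which removes the formyl group from new proteins, rose (0.38, SE 0.07) and lies on chromosome 8. Of 22 assembly and rRNA modification genes, 11 fell, 2 rose and 9 were not called in early LP (median -0.23), and 13 fell and 3 rose in median LP. The shares called lower in early LP were 75% (translation factors) and 50% (assembly and modification), against 37.9% of all genes tested. In median LP they were 81.25% and 59.1%, against 37.7%. Noa1, a GTPase (-0.56, SE 0.07), Fastkd2 (-0.70, SE 0.10) and Wbscr16 (-0.70, SE 0.08) fell, and Ddx28, an RNA helicase on chromosome 8, rose (0.77, SE 0.07).

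Of 10 genes for replication and transcription of mitochondrial DNA, 8 fell in early LP, 9 fell in median LP and none rose in either. Tfam, which packs and transcribes that DNA, went from 85.4 ± 2.48 to 46.0 ± 3.81 CPM in early LP (log2 change -0.89, SE 0.07), Peo1 changed by -0.76 (SE 0.08), Polg, the DNA polymerase, by -0.46 (SE 0.06) and Ssbp1, the single-strand binding protein, by -0.52 (SE 0.08). Of 27 import genes, 19 fell and 1 rose in early LP and 20 fell and 1 rose in median LP. Hspe1 (-1.24, SE 0.11) and Hspd1 (-0.87, SE 0.09), the matrix chaperonin, Timm9 (-0.86, SE 0.09) and the processing peptidase Pmpca (-0.54, SE 0.06) were among those that fell. Of 17 mitochondrial aminoacyl-tRNA synthetases, 11 fell and 1 rose, and 9 fell and 2 rose. The shares called lower in early LP were 80% (mitochondrial DNA), 70.4% (import) and 64.7% (synthetases), against 37.9% of all genes tested. In median LP they were 90%, 74.1% and 52.9%, against 37.7%.

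A set of 12 proteins of the mitochondrial membranes and matrix had 6 lower and 2 higher in early LP and 7 lower and 2 higher in median LP. The shares called lower were 50% and 58.3%, against 37.9% and 37.7% of all genes tested. Phb2, a prohibitin, changed by -0.83 (SE 0.09), and Cs, citrate synthase, by -0.42 (SE 0.07). The 81 respiratory chain subunits had 36 lower and 11 higher in early LP (median -0.21) and 47 lower and 7 higher in median LP (-0.34). Of these subunits 44.4% were lower in early LP, near the 37.9% of all genes tested, and 58.0% in median LP, against 37.7%. Those called higher were 13.6% and 8.64%, against 35.3% and 36.0%. The 81 cytosolic ribosomal proteins tested had 63 lower (77.8%) and 2 higher (-0.51), and 66 lower (81.5%) and 2 higher (-0.57). Their summed levels in CPM fell by 19.1% and by 26.3% for the respiratory chain and by 27.2% and by 31.2% for the cytosolic ribosome. In FPKM these sums changed by -9.40% and -20.7% for the respiratory chain and by -28.8% and -34.2% for the cytosolic ribosome. Differences between these groups and the mitochondrial ribosome were not tested.

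**Figure D5:**
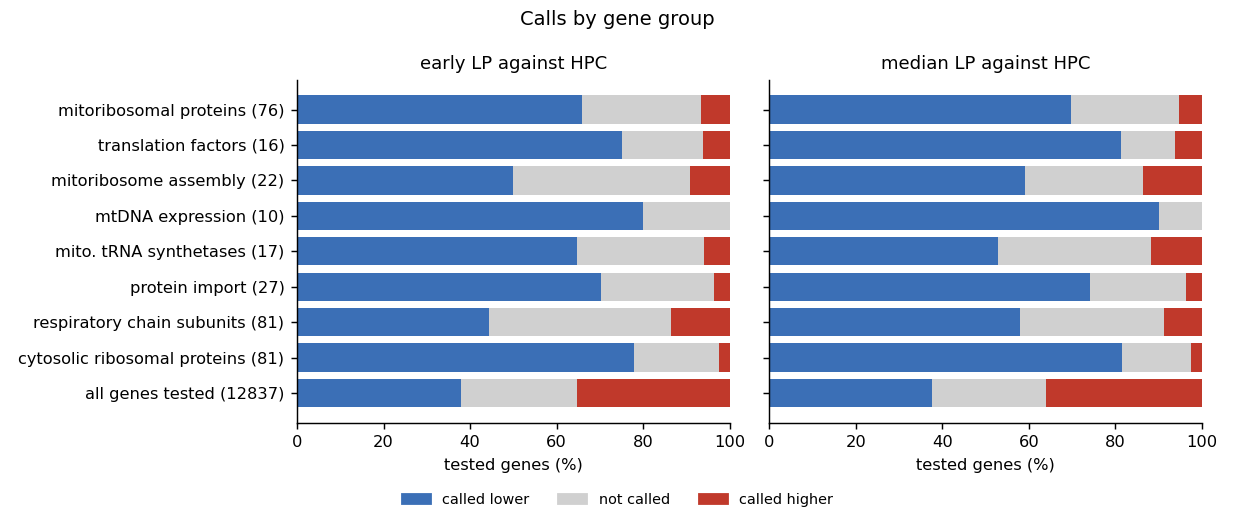
Share of tested genes (horizontal axis, percent) called lower (blue), not called (grey) and called higher (red) by gene group, with early LP on the left and median LP on the right, each against HPC, with the number of genes tested in brackets. The bar of the mitochondrial ribosomal proteins is 65.8% blue on the left and 69.7% on the right, against 37.9% and 37.7% for all genes tested.

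Of 14 nuclear regulators of mitochondrial genes, 6 fell and 4 rose in early LP and 5 fell and 4 rose in median LP. Those called lower were 42.9% and 35.7%, near the 37.9% and 37.7% of all genes tested, and those called higher 28.6% in both, against 35.3% and 36.0%. Mycn, a Myc family factor, fell from 15 ± 2.17 CPM in HPC to 0.148 ± 0.145 in early LP. Mxi1, an antagonist of Myc, rose by 1.37 (SE 0.07) and Mxd4, another, by 0.92 (SE 0.09). Gabpb1, the partner of GABPA, changed by -0.59 (SE 0.06), Gabpa by 0.20 (SE 0.08, in a locus shared with Atp5j), Nrf1 by -0.38 (SE 0.06), Yy1 by -0.15 (SE 0.06) and Myc by -0.34 (SE 0.10). RNA levels of a factor do not give its activity.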

How the data were processed

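RNA-seq of 9 libraries, 3 per group, was analysed. Per the file headers, the deposited table gives transcript lengths, FPKM and estimated counts per library, both made by the authors. The submitters' processing notes name TopHat2 2.0.6 and mm10. What quantified the transcripts, on which annotation and whether by strand is not given in the sources used here. The deposited estimated counts share a common scaling of library size. Fragments were recovered by division by a step, taken in each library as the most common low value, and served as an alternative. Among low counts of genes with a single transcript and no shared locus, 90.8 to 92.3% were within 0.05 of a whole number of steps.

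Estimated counts were summed by gene symbol, rounded and tested with edgeR 4.0.16 in R 4.3.3 (TMM, filterByExpr, quasi-likelihood F test, two-sided, 1 fit of all 9 libraries, Benjamini-Hochberg over 12837 genes, called under an adjusted p of 0.05). The filter left out 3700 genes, and the common biological coefficient of variation was 9.81%. The script was tested on simulated counts. The members and gene lists were chosen with earlier results of these data known. Named were, in each comparison, the 6 called members with the largest change in each direction and at least 5 CPM in the higher group, the 5 highest and 5 lowest in FPKM, members on chromosomes 8 and 15, and up to 4 genes of each list by adjusted p. Further genes of these groups were named after their values had been seen. Coordinates are those of the table on mm10, counted from 1. Promoters are RefSeq's on GRCm38.p6, matched by gene identifier or symbol. At 64 of 73 start sites a stretch of bases shortly after the start was found in the first part of a GENCODE vM21 transcript of the gene. This checks the orientation and not whether the starts coincide. Alternatives were DESeq2 1.42.0, other scalings, no filter, recovered fragments, limma 3.58.1 on FPKM, a transcript length offset, 2 groups only, a replicate block and leaving out each library.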

Additional observations from a re-analysis of the deposited data

How the results depend on the processing

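Counts of members called lower stayed within 1.5 times of 50 in early LP and of 53 in median LP under every alternative, with 41 of the 50 and 43 of the 53 genes called in each of them. Leaving out 1 library gave for early LP 41 (without early LP 1) to 51 lower and 3 to 7 higher, for median LP 45 (without median LP 2) to 55 lower and 3 to 6 higher, and 0 and 0 between the LP groups. Upper quartile scaling, which put the median of all genes at -0.11 and -0.12 in place of -0.04 and -0.04, gave 3 higher in early LP and 1 higher in median LP, with 59 lower in both. With limma on FPKM, at a pseudocount of 1 and of 0.1, 1 member, Mrpl19, was higher in median LP. A transcript length offset gave 57 lower and 7 higher for early LP, 52 and 5 for median LP, and 2 higher in median against early LP, Mrpl50 and Mrps31.

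Without TMM scaling the summed level changed by -28.7% (early LP) and -27.96% (median LP), all genes tested shifted by -0.18 and -0.14 on the log2 scale, and every member called higher stayed above 0. Summed FPKM changed by -23.5% and -28.4%. Without 1 library the sums changed by -21.2% to -15.2% (early LP), -23.1% to -16.99% (median LP) and -4.79% to -0.3663% (between the LP groups), and leaving out HPC 3 gave the smallest changes against HPC. Over the libraries left out, the uncalled early LP changes of Mrpl34 ranged from -0.21 to 0.0391 and those of Mrps31 from -0.0765 to 0.0187, positive without HPC 3. The cause of these changes was not tested.

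With the replicate number as a block, 49 members were lower and 4 higher for early LP, where Mrpl43 lost its call (adjusted p = 0.0662), 52 and 4 for median LP, and 0 and 0 between the LP groups. The deviations of same-numbered libraries correlated at -0.21 to 0.12 and those of differently numbered libraries at -0.22 to 0.22. This gave no sign that the numbers pair the samples, but with 3 libraries per group it cannot exclude pairing. Over the named members' changes and the medians over all members together, 760 settings were counted as unchanged. For the named members, 12 settings gained a call, 43 lost one and 2 reversed the direction.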
